A study of Mus musculus with 90 samples.

Results

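The genes described here are 8 regulators of the fasting programme of the liver. They are the PGC-1 coactivators Ppargc1a and Ppargc1b, the CREB coactivator Crtc2, the transcription factors Creb1, Creb3l3 and Crem, the kinase Sik1 and the orphan receptor Nr4a1. They were taken by symbol from 24312 symbols with an RNA value in mouse liver. Where a symbol had several RefSeq IDs, the most abundant ID over the 54 RNA libraries was taken. RNA abundance is given in RPKM (reads scaled by transcript length and by mapped reads).

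The wild-type and GR fl/fl mice were C57BL/6N and the L-IRSdKO mice were on C57BL/6J by the methods, where the labels read C57BL/6 throughout, and each RNA library came from 1 animal. Night-restricted feeding (NRF) gave food from zeitgeber time (ZT, hours after lights on) 12. In wild-type mice without injection, livers were taken before the meal at ZT10 and at ZT14 with or without food, with 2 libraries per group from ribosome-depleted total RNA. All other libraries were made from poly(A)-enriched RNA at ZT14. Wild-type mice were injected before the meal time with vehicle, 1 mg/kg dexamethasone (dex, a synthetic glucocorticoid), the insulin receptor antagonist S961 (44 nM per mouse in the labels, but an amount per kg of body weight in the methods, so the dose is uncertain) or both, and were fed, and a vehicle group stayed unfed (5 groups of 4). L-GRKO mice carried floxed Nr3c1, the gene of the glucocorticoid receptor (GR), and received an adeno-associated virus (AAV) with Cre under a liver-specific promoter, against GR fl/fl mice given AAV-GFP. Both groups were unfed (4 each). L-IRSdKO mice carried floxed Irs1 and Irs2, the insulin receptor substrates, with Alb-Cre, and were compared with IRS fl/fl mice. Both of these groups were fed and had received 1 mg/kg dex (4 each), so dex was shared by mutants and controls. The sample titles name S961, while the treatment labels number it from S961 to S965 from sample to sample, and the titles were followed. Lean mice had eaten chow and obese mice a high-fat diet for 10 weeks before NRF, and were taken unfed or fed (3 each). GR and FOXO1 ChIP-seq peaks came from unfed livers at ZT14, and DNase-hypersensitive sites (DHSs) from DNase reads of fed and unfed livers at ZT14 combined.

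In the fasted liver, glucagon raises cAMP and activates protein kinase A. The kinase phosphorylates CREB1 and restrains salt-inducible kinases, which lets CRTC2 enter the nucleus and bind CREB1. CREB1 then acts on genes of glucose production and on Ppargc1a, whose product coactivates FOXO1, HNF4A and GR at such genes. Insulin opposes the programme through AKT, which removes FOXO1 from the nucleus and acts on CRTC2 through the salt-inducible kinases. Crem, Sik1 and Nr4a1 are themselves cAMP-induced genes. CREM includes the repressor ICER, and SIK1 phosphorylates CRTC2, so both are known as brakes. Creb3l3 encodes CREB-H, a membrane-bound factor of the hepatocyte that is cut free in the Golgi.

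The targeted genes followed the labels. Nr3c1 lay between 3.93 and 5.35 RPKM in L-GRKO and between 12.8 and 16.2 RPKM in the AAV-GFP controls. Irs1 lay between 0.149 and 0.321 RPKM in L-IRSdKO and between 2.21 and 4.73 RPKM in IRS fl/fl. Irs2 overlapped, with 0.272 to 1.00 RPKM in L-IRSdKO and 0.614 to 5.61 RPKM in IRS fl/fl. The libraries differed in ways that touched the members. The 8 libraries of the L-IRSdKO experiment had a highest RPKM of 674 to 914, against at least 18853 in each other library. Levels were therefore not compared across experiments. Among the injected mice, replicate 4 of each group carried library IDs of a later range. Crtc2 was at 13.3 to 18.4 RPKM in those 5 libraries and at 4.78 to 10.4 RPKM in replicates 1 to 3, whatever the treatment. A term for this library series was therefore tried beside each result of the injected mice. The hepatocyte markers were abundant in all groups, with a summed level of at least 1951 RPKM. Adipocyte markers summed to 0.642 RPKM or less. In bulk liver, fewer cells of a type and less RNA per cell cannot be told apart.

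Each experiment was fitted apart with limma on log2(RPKM + 0.5), and a gene was called at a Benjamini-Hochberg adjusted p under 0.05 over all symbols with a mean of at least 0.5 RPKM. Log2 values below are differences on that scale ± SE. Nr4a1 passed the filter only in the mutants' experiments (GR and IRS), and the other 7 members passed in all 5. In the uninjected mice, 2 of 7 tested members were called between ZT10 and ZT14-unfed, where 8.95% of all tested symbols were called, and 3 of 7 between ZT14-unfed and ZT14-fed, where 6.77% were. In the injected mice, the meal alone called 0 of 7 (3.13% of all symbols). Dex (3.19%), S961 (1.9%) and both agents together (10.6%), each against fed vehicle, called 1 of 7, which was Ppargc1a each time. Against unfed vehicle, the combined treatment called 1 of 7 (2.32%), again Ppargc1a. The interaction of dex and S961 called 0% of the 11251 symbols, with 513 of them at an unadjusted p under 0.05. In L-GRKO 0 of 8 members were called (6.68% of all symbols), and in L-IRSdKO 4 of 8 (17.4%). The meal called 4 of 7 in lean mice (23.4%) and 0 of 7 in obese mice (7.65%). Obese against lean called 1 of 7 unfed (5.22%) and 0 of 7 fed (0.499%), and the interaction of diet and meal called 0 of 7 (0.743%). The uninjected ZT14-unfed group, all groups of injected mice and the 4 diet groups each enter several of these comparisons, which are therefore not independent.

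**Figure D1:**
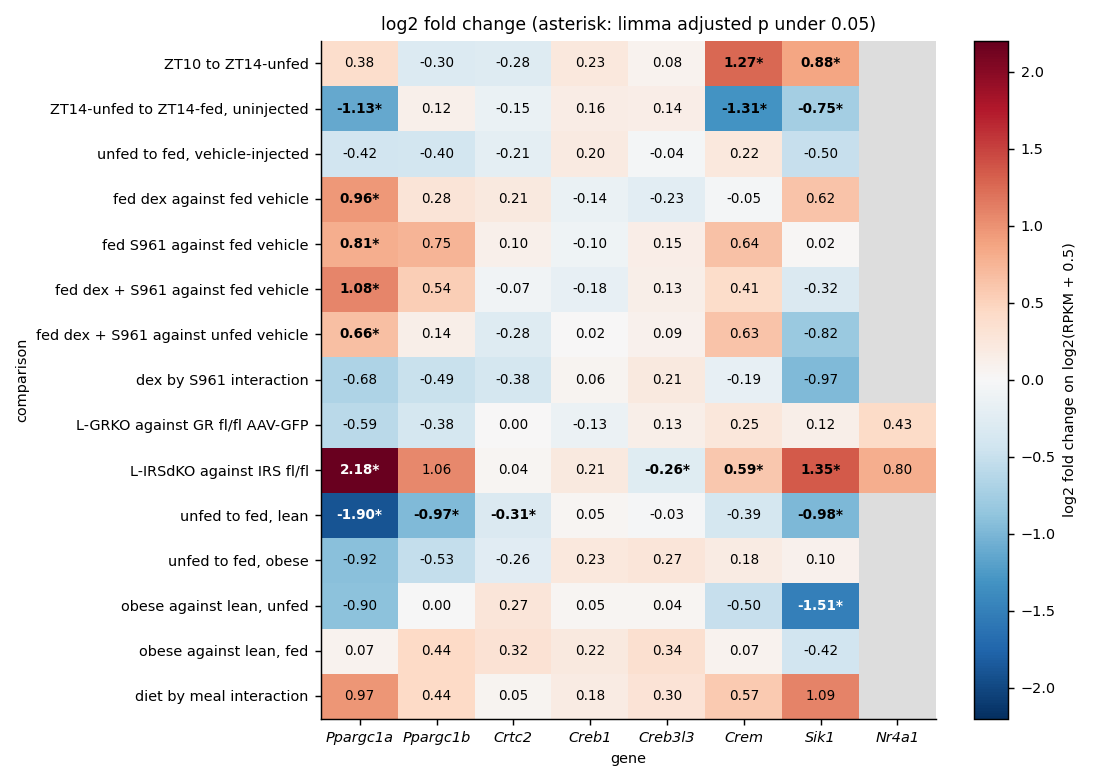
Log2 fold change of each gene (columns) in each comparison (rows), on log2(RPKM + 0.5), in colour from blue (lower) to red (higher). An asterisk marks a limma adjusted p under 0.05 and grey marks a gene below the filter. Ppargc1a holds 7 of the marked cells, from -1.90 for the meal in lean mice to 2.18 in L-IRSdKO.

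Ppargc1a, which encodes PGC-1 alpha, fell with the meal in uninjected and in lean mice. Without injection it was at 1.57 and 1.81 RPKM at ZT10, at 1.78 and 3.06 RPKM at ZT14-unfed, and at 0.773 and 0.834 RPKM at ZT14-fed. Both fed livers were below all 4 unfed ones. The change from ZT14-unfed to ZT14-fed was -1.13 ± 0.21 (adjusted p = 0.0247), against a median of 0.12 over all symbols. This call rested on 2 mice per group and was lost without ZT14-unfed replicate 2 or either ZT14-fed replicate (adjusted p 0.062 to 0.152). From ZT10 to ZT14-unfed the difference was 0.38 ± 0.21 (adjusted p = 0.284), and it passed the threshold without ZT14-unfed replicate 1 (0.70, adjusted p = 0.0488). In lean mice Ppargc1a was at 6.27, 4.56 and 5.49 RPKM unfed and at 1.09, 0.879 and 1.31 RPKM fed. These groups were far apart, with a change of -1.90 ± 0.25 (adjusted p = 0.000825) that held with each library left out. Endothelial markers (4 genes) summed to 19.4 to 22.2 RPKM in lean unfed and 14.6 to 15.0 RPKM in lean fed livers. Stellate and fibroblast markers (4 genes) summed to 53.4 to 89.0 RPKM unfed and 39.1 to 52.1 RPKM fed. Neither pair of ranges overlapped, and the part of these cells in this and the other results of the lean meal was not tested.

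In obese mice all 3 unfed livers had less Ppargc1a than all 3 lean unfed livers, and the fed livers of both diets overlapped. Obese livers were at 3.58, 3.15 and 1.64 RPKM unfed and at 1.81, 0.911 and 0.925 RPKM fed. The lowest unfed obese liver was below the highest fed obese liver, so these groups overlapped. The meal difference was -0.92 ± 0.25 (adjusted p = 0.0502), and it passed the threshold without obese unfed replicate 3 or obese fed replicate 1 (adjusted p 0.0131 and 0.0269). Obese against lean, Ppargc1a differed by -0.90 ± 0.25 unfed (adjusted p = 0.0679; 0.0278 without obese unfed replicate 1) and by 0.07 ± 0.25 fed (adjusted p = 0.898). The difference between the diets in the meal effect was 0.97 ± 0.36 (unadjusted p = 0.0207, adjusted p = 0.243) and was not called. Hepatocyte markers (6 genes) summed to 46720 to 52207 RPKM in obese unfed and 52757 to 61728 RPKM in lean unfed livers. After the meal they summed to 44007 to 46363 RPKM in obese and 52609 to 55753 RPKM in lean livers. Neither pair of ranges overlapped. Stellate and fibroblast markers summed to 52.5 to 61.8 RPKM in obese fed livers, above the lean fed range. The part of these markers in the differences between diets of all members was not tested.

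**Figure D2:**
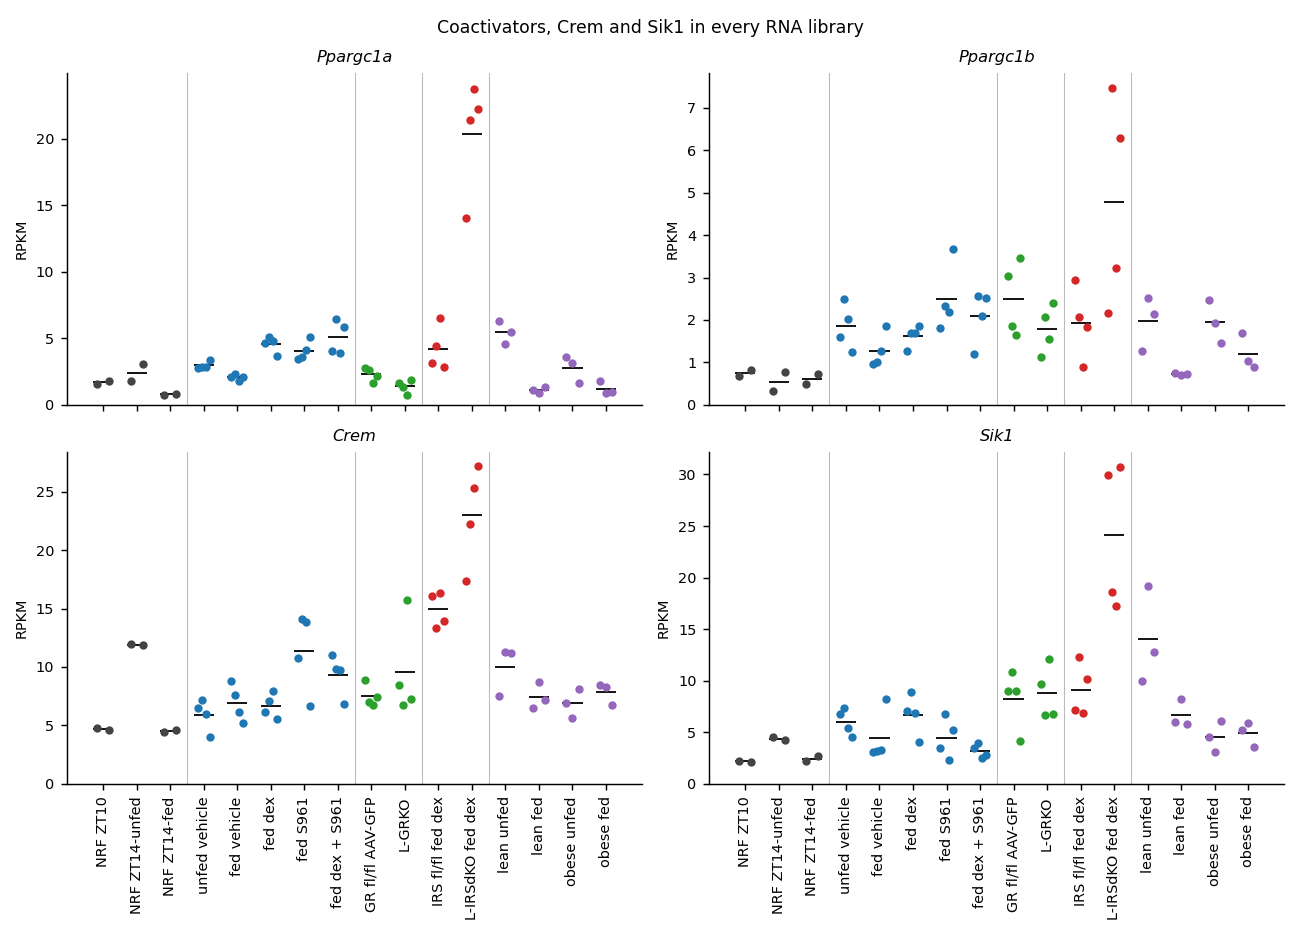
RPKM (vertical axis, linear from 0) of Ppargc1a, Ppargc1b, Crem and Sik1 in each of the 54 RNA libraries (points) of 16 groups, with the group mean as a bar and the 5 experiments separated by grey lines and colour. Within the L-IRSdKO experiment, Ppargc1a lies between 14.03 and 23.8 RPKM in the mutants and between 2.85 and 6.51 RPKM in the controls. RPKM levels are not comparable between experiments.

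Among fed injected mice, dex and S961 each went with more Ppargc1a RNA. Fed vehicle livers had 2.12, 2.34, 1.81 and 2.09 RPKM, and fed dex livers had 4.64, 5.13, 4.77 and 3.64 RPKM. Fed S961 livers had 3.44, 3.56, 4.11 and 5.12 RPKM. With both agents the values were 4.07, 6.45, 3.90 and 5.86 RPKM. None of the 12 treated livers overlapped the fed vehicle group. Against fed vehicle the changes were 0.96 ± 0.15 for dex (adjusted p = 0.00148), 0.81 ± 0.15 for S961 (adjusted p = 0.00922) and 1.08 ± 0.15 for both (adjusted p = 0.00023). The median over all symbols was -0.14 in the last of these. All 3 calls held with each library left out and with a term for the library series (adjusted p 0.000708, 0.00389 and 0.000105). Endothelial markers (4 genes) summed to 28.0 to 29.6 RPKM in fed vehicle livers and to 15.1 to 26.2 RPKM over the 3 treated groups. Kupffer cell and leukocyte markers (7 genes) summed to 40.4 to 60.3 RPKM in fed vehicle livers and to 33.3 to 38.9 RPKM with dex and S961 together, and overlapped fed vehicle in the other 2 groups. The part of these markers in the results was not tested. The S961 call was lost when those 2 groups were fitted alone (adjusted p = 0.0925).

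Unfed vehicle livers had 2.79, 2.86, 2.83 and 3.35 RPKM of Ppargc1a, all above the 4 fed vehicle livers, but the difference from unfed to fed of -0.42 ± 0.15 was not called (adjusted p = 0.133). Endothelial markers summed to 21.3 to 22.9 RPKM and Kupffer cell and leukocyte markers to 27.7 to 37.8 RPKM in unfed vehicle livers. Both lay below the fed vehicle ranges. Their part in this and the other results of the vehicle meal was not tested. With dex and S961 together, fed livers were above the unfed vehicle level by 0.66 ± 0.15 (adjusted p = 0.0229). This call was lost without dex + S961 replicate 2 or 4 or unfed vehicle replicate 1, 2 or 3 (adjusted p 0.065 to 0.0925), and was 0.0114 with the library-series term. The effect of the combination was smaller than the sum of the 2 single effects by 0.68 ± 0.21 (unadjusted p = 0.00471). After adjustment over all symbols this interaction was not called (adjusted p = 1).

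Ppargc1a rose in L-IRSdKO and was not called in L-GRKO. In L-IRSdKO livers it was at 14.03, 21.4, 23.8 and 22.2 RPKM, and in IRS fl/fl at 3.14, 4.41, 6.51 and 2.85 RPKM. All mutants exceeded all controls, with a change of 2.18 ± 0.25 (adjusted p = 0.00204). This was the largest change of any member in any comparison, and it held with each library left out. In the same comparison the endothelial markers (4 of 4 detected) summed to 54.2 to 65.9 RPKM in the mutants and 36.8 to 41.5 RPKM in the controls. Kupffer cell and leukocyte markers (7 genes) summed to 152 to 171 RPKM in the mutants and 98.3 to 156 RPKM in the controls. The part of these markers in this and the other results of the comparison was not tested. In L-GRKO Ppargc1a was at 1.66, 1.34, 0.718 and 1.85 RPKM, against 2.73, 2.62, 1.67 and 2.18 RPKM in AAV-GFP mice. The groups overlapped, and the difference of -0.59 ± 0.21 was not called (adjusted p = 0.146).

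Ppargc1b encodes PGC-1 beta, known for coactivating mitochondrial and lipogenic genes. It fell with the meal in lean mice, from 1.27, 2.51 and 2.15 RPKM to 0.751, 0.713 and 0.727 RPKM (-0.97 ± 0.22, adjusted p = 0.0108). All lean fed livers were below all other livers of the diet experiment. Obese livers had 2.47, 1.94 and 1.45 RPKM unfed and 1.69, 1.03 and 0.901 RPKM fed, a difference of -0.53 ± 0.22 that was not called (adjusted p = 0.169). In uninjected mice all 6 values lay between 0.314 and 0.827 RPKM without a call.

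With S961, Ppargc1b was at 1.80, 2.34, 2.19 and 3.67 RPKM, against 0.952, 1.01, 1.27 and 1.85 RPKM in fed vehicle livers. The 2 groups overlapped by 1 library, fed vehicle replicate 4. The difference of 0.75 ± 0.22 missed the threshold (adjusted p = 0.0943) and passed it with the library-series term (adjusted p = 0.0458) or without that library (adjusted p = 0.0449). With both agents the difference was 0.54 ± 0.22 (adjusted p = 0.126, and 0.0387 without dex + S961 replicate 1), and with dex alone 0.28 ± 0.22 (adjusted p = 0.535). L-IRSdKO livers had 2.17, 7.46, 3.22 and 6.28 RPKM, against 2.93, 2.08, 0.892 and 1.84 RPKM in controls. L-IRSdKO replicate 1 lay within the control range, and the difference of 1.06 ± 0.39 was not called (adjusted p = 0.0951). Without that library it was 1.34 (adjusted p = 0.0268).

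Crtc2, the coactivator that carries the cAMP signal to CREB1, moved little. In lean mice it was at 9.46, 10.4 and 10.9 RPKM unfed and at 7.99, 7.59 and 8.91 RPKM fed. The groups did not overlap, and the change of -0.31 ± 0.08 was called (adjusted p = 0.0214). That call was lost without lean unfed replicate 2 or 3 or lean fed replicate 1 or 2 (adjusted p 0.0644 to 0.0844). In obese mice the values were 12.1, 12.8 and 12.4 RPKM unfed and 11.01, 10.3 and 9.74 RPKM fed. All unfed exceeded all fed livers, with a difference of -0.26 ± 0.08 (adjusted p = 0.0834). Each obese group was above the lean group of the same meal, by 0.27 ± 0.08 unfed (adjusted p = 0.0856) and 0.32 ± 0.08 fed (adjusted p = 0.0964), and neither was called. Among injected mice the 5 comparisons with vehicle groups gave between -0.28 and 0.21, with an SE of 0.34 that was 0.18 once the library series was in the fit, and none was called either way. In L-IRSdKO and L-GRKO, Crtc2 differed by 0.04 ± 0.09 and 0.00 ± 0.09.

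Creb1, the kinase-activated factor of the pathway, was called in none of the 15 comparisons. Its RPKM lay between 2.01 and 5.79 over all libraries, and its differences lay between -0.18 and 0.23. In uninjected mice it was at 2.15 and 2.201 RPKM at ZT10, 2.62 and 2.64 RPKM at ZT14-unfed, and 2.97 and 3.04 RPKM at ZT14-fed. These 3 groups did not overlap, but the 2 steps of 0.23 ± 0.10 and 0.16 ± 0.10 were not called (adjusted p = 0.202 and 0.333). Creb3l3 was the most abundant member, at 60.3 to 167 RPKM. It was called once, in L-IRSdKO, where it was at 141, 120, 136 and 125 RPKM against 148, 156, 163 and 157 RPKM. The groups did not overlap, and the fall by 0.26 on the log2 scale (SE 0.07, adjusted p = 0.0317) was lost without replicate 2, 3 or 4 of either group (adjusted p 0.0567 to 0.0941). In fed mice Creb3l3 was at 165, 167 and 149 RPKM in obese livers and at 127, 125 and 126 RPKM in lean ones. All obese livers exceeded all lean ones, by 0.34 ± 0.14, without a call (adjusted p = 0.215). The difference passed the threshold when those 2 groups were fitted alone (adjusted p = 0.0301).

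**Figure D3:**
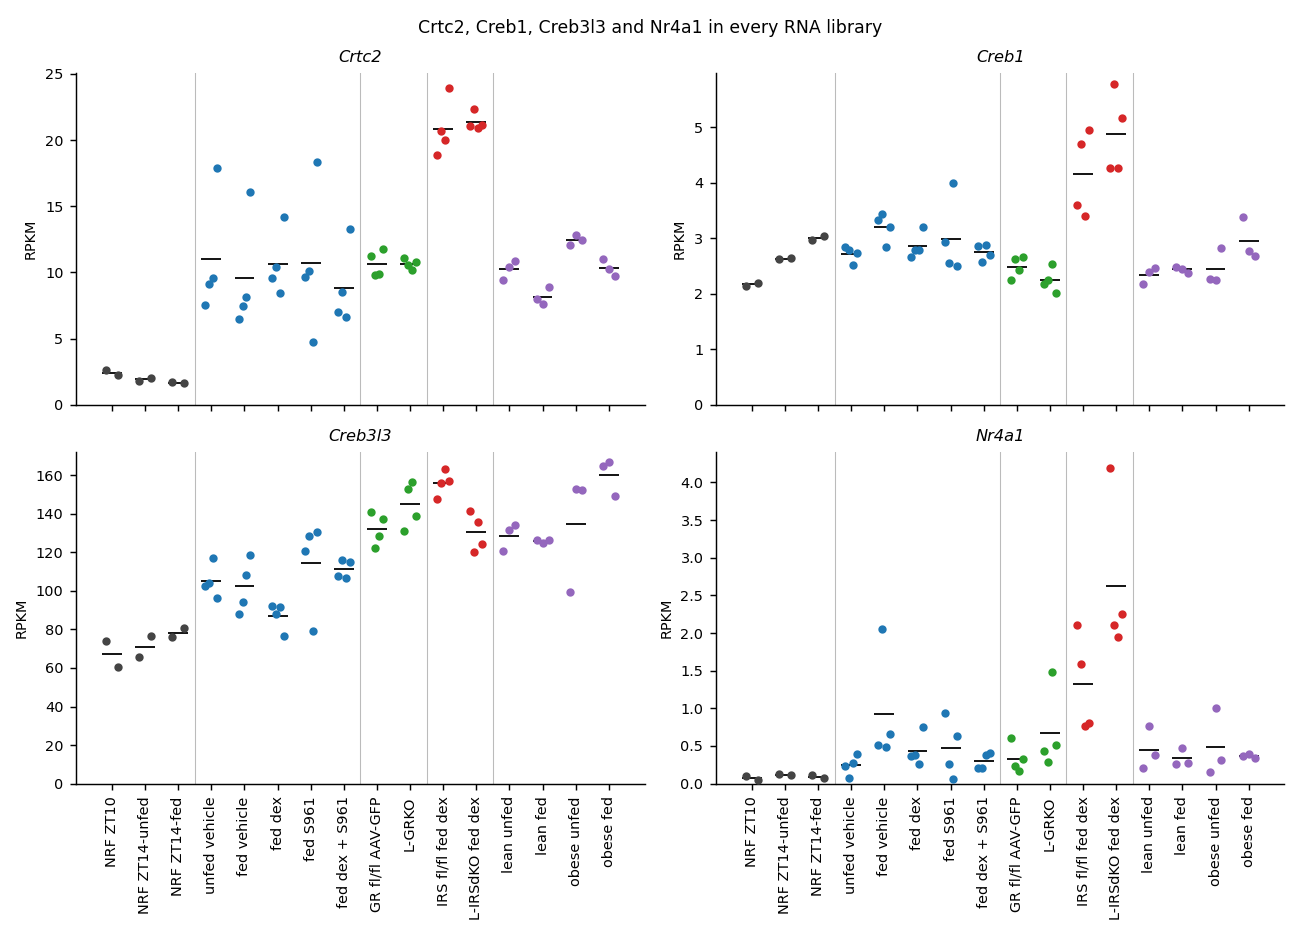
RPKM (vertical axis, linear from 0, one scale per panel) of Crtc2, Creb1, Creb3l3 and Nr4a1 in each of the 54 RNA libraries (points) of 16 groups, with group means as bars and experiments separated by grey lines. In the 5 injected groups, 1 Crtc2 value per group, that of replicate 4, stands between 13.3 and 18.4 RPKM.

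Crem, the cAMP-responsive modulator, had the sharpest change between ZT10 and ZT14-unfed. It was at 4.74 and 4.56 RPKM at ZT10, at 11.95 and 11.85 RPKM at ZT14-unfed, and at 4.41 and 4.61 RPKM at ZT14-fed. ZT14-unfed livers exceeded ZT10 livers by 1.27 ± 0.09 (adjusted p = 0.00236), and ZT14-fed livers, taken at the same hour from other mice, differed from ZT14-unfed by -1.31 ± 0.09 (adjusted p = 0.00146). The ZT14-unfed mice are shared by both comparisons. Both calls held with each library left out. In vehicle-injected mice the same meal comparison gave 0.22 ± 0.22 (adjusted p = 0.634), and in lean mice -0.39 ± 0.18 (adjusted p = 0.139). The lean difference passed the threshold without lean unfed replicate 1 (-0.57, adjusted p = 0.0347). The uninjected libraries came from ribosome-depleted RNA and the others from poly(A) RNA, and a difference between experiments was not tested. Stellate and fibroblast markers (4 genes) summed to 50.9 to 63.5 RPKM at ZT10, 65.6 to 68.4 RPKM at ZT14-unfed and 51.8 to 58.4 RPKM at ZT14-fed. Hepatocyte markers (6 genes) summed to 30327 to 30958, 33812 to 34716 and 28652 to 31487 RPKM in the same order. In both lists ZT14-unfed lay above the other groups without overlap. The part of these markers in the uninjected results of all members was not tested.

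In the injected mice Crem was at 8.76, 7.64, 6.14 and 5.24 RPKM after fed vehicle and at 10.8, 14.1, 13.8 and 6.67 RPKM after S961. Replicates 1 to 3 of S961 exceeded all fed vehicle livers, and replicate 4 did not. The difference of 0.64 ± 0.22 was not called (adjusted p = 0.171). With the library-series term the SE was 0.12 and the call was made (adjusted p = 0.00598), as it was in replicates 1 to 3 alone (0.74, adjusted p = 0.0164) and without S961 replicate 4 (0.86, adjusted p = 0.0471). Replicate 4 was the lowest library of each injected group. With dex and S961 together Crem was at 11.02, 9.85, 9.72 and 6.79 RPKM. Its difference from fed vehicle was 0.41 ± 0.22 (adjusted p = 0.263, and 0.0278 with the term), and from unfed vehicle 0.63 ± 0.22 (adjusted p = 0.19, and 0.00494 with the term). With dex alone the difference was -0.05 ± 0.22 (adjusted p = 0.94).

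In L-IRSdKO Crem was at 17.4, 22.2, 25.4 and 27.3 RPKM, against 16.1, 13.4, 16.3 and 13.98 RPKM in controls. All mutants exceeded all controls, and the rise of 0.59 ± 0.14 was called (adjusted p = 0.0232). The call was lost without IRS fl/fl replicate 2 or 4 or L-IRSdKO replicate 2, 3 or 4 (adjusted p 0.0595 to 0.0702). Crem has 18 RefSeq IDs, which share reads. Of these, 16 moved as 1 set, with a ratio of L-IRSdKO to control means of 1.43 to 1.55 and of ZT14-unfed to ZT10 of 2.33 to 2.56. NM_001110851 and NM_001110852, the 2 IDs with the lowest RPKM, had ratios of 0.932 and 0.954 in the first comparison and of 1.60 and 1.58 in the second.

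Sik1, the cAMP-induced kinase that returns CRTC2 to the cytoplasm, was called in 5 comparisons. In uninjected mice it was at 2.19 and 2.11 RPKM at ZT10, 4.49 and 4.24 RPKM at ZT14-unfed, and 2.16 and 2.65 RPKM at ZT14-fed. Both ZT14-unfed livers were above the other 4. ZT14-unfed exceeded ZT10 by 0.88 ± 0.12 (adjusted p = 0.0104), and ZT14-fed differed from ZT14-unfed by -0.75 ± 0.12 (adjusted p = 0.0177). Both differences share the ZT14-unfed mice. The first call was lost without either ZT10 replicate (adjusted p 0.0518 and 0.0576), and the second without ZT14-unfed replicate 2 or either ZT14-fed replicate (adjusted p 0.0614 to 0.0817).

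In lean mice Sik1 was at 10.0, 19.2 and 12.8 RPKM unfed and at 5.96, 8.19 and 5.83 RPKM fed. The change of -0.98 ± 0.27 was called (adjusted p = 0.0232) and was lost without lean unfed replicate 2 or 3 or lean fed replicate 1 or 3 (adjusted p 0.0516 to 0.0877). In obese mice it was at 4.53, 3.10 and 6.09 RPKM unfed and at 5.22, 5.85 and 3.56 RPKM fed. These groups overlapped fully, with a difference of 0.10 ± 0.27 (adjusted p = 0.849). Before the meal, all obese livers were below all lean livers, by -1.51 ± 0.27 (adjusted p = 0.0133), and this call held with each library left out but not when those 2 groups were fitted alone (adjusted p = 0.0871). Endothelial markers summed to 13.97 to 16.7 RPKM in obese unfed livers, below the lean unfed range. Their part in this and the other differences between diets in unfed livers was not tested. The difference between the diets in the meal effect on Sik1 was 1.09 ± 0.38 (unadjusted p = 0.0158, adjusted p = 0.225).

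Fed injected mice had 3.03, 3.21, 3.21 and 8.19 RPKM of Sik1 after vehicle and 7.07, 8.87, 6.81 and 4.07 RPKM after dex. Fed vehicle replicate 4 was far above the other 3 of its group, while replicate 4 was the lowest of the dex group. The difference of 0.62 ± 0.31 was not called (adjusted p = 0.283), and in replicates 1 to 3 alone it was 1.14 (adjusted p = 0.0193). S961 gave 0.02 ± 0.31 and both agents -0.32 ± 0.31 against fed vehicle, and both agents -0.82 ± 0.31 against unfed vehicle (adjusted p = 0.232). In L-IRSdKO Sik1 was at 29.9, 18.6, 17.2 and 30.7 RPKM, against 7.19, 12.3, 6.81 and 10.1 RPKM. All mutants exceeded all controls, with a rise of 1.35 ± 0.25 (adjusted p = 0.00945) that held with each library left out. In L-GRKO the difference was 0.12 ± 0.27.

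Nr4a1, an orphan nuclear receptor induced within minutes by cAMP, was low in most livers. Uninjected livers had 0.052 to 0.127 RPKM, and its mean was below the filter in 3 of the 5 experiments. In L-IRSdKO it was at 4.20, 2.11, 1.95 and 2.25 RPKM against 2.11, 1.58, 0.768 and 0.805 RPKM. Only 1 control library reached the mutant range, and the difference of 0.80 ± 0.30 was not called (adjusted p = 0.101). In L-GRKO the difference was 0.43 ± 0.28 (adjusted p = 0.455).

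The other genes of the pathway were read in the same fits as 4 lists. Of 41 genes of the cAMP and CREB machinery (receptor, cyclases, kinase subunits, phosphodiesterases, other family members), 32 were tested in uninjected mice. Between ZT14-unfed and ZT14-fed, 1 rose and 1 fell, with a median change of 0.10 against 0.12 over all symbols. That was 2 of 32 called, where 6.77% of all symbols were. The riser was Prkaca, a catalytic subunit of protein kinase A (0.54 ± 0.11), a call lost without any 1 of the 4 libraries (adjusted p 0.0559 to 0.22). In L-IRSdKO 3 rose and 1 fell of 35 (17.4% of all symbols called), the latter being Gcgr, the glucagon receptor (-0.39 ± 0.08, adjusted p = 0.0152). With dex and S961 together against fed vehicle, 2 rose and 4 fell of 34 (10.6% of all symbols called). Prkaca (-0.46 ± 0.10), Pde4b (-0.59 ± 0.18) and Pde8a (-0.45 ± 0.10), the last 2 being phosphodiesterases, were among those that fell, and all 3 calls were lost with median-ratio scaling (adjusted p = 0.0983, 0.115 and 0.0884). Over all symbols, 304 of 1193 calls were rises as deposited and 451 of 773 with that scaling.

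Genes known to respond to cAMP formed a list of 18. With the meal, 6 of 14 tested fell in uninjected mice (median -0.56), 5 of 16 in vehicle-injected mice (median -0.20), 11 of 14 in lean mice (median -1.17) and 3 of 14 in obese mice (median -0.54), against medians of 0.12, 0.10, 0.08 and 0.02 over all symbols, of which 6.77%, 3.13%, 23.4% and 7.65% were called. Of the 14, 1 rose in lean mice. G6pc, the glucose-6-phosphatase, had the largest fall of the list without injection (-3.02 ± 0.12) and with vehicle (-1.60 ± 0.33). The second call was lost without unfed vehicle replicate 1 or 2 (adjusted p = 0.0542 and 0.064). In lean mice Pck1, the PEP carboxykinase of glucose production, fell most (-2.55 ± 0.26), ahead of G6pc (-2.09 ± 0.36). In L-IRSdKO 9 of 17 rose and none fell, with a median of 0.55 against 0.03 (17.4% of all symbols called). Egr1, an immediate-early factor, led them with 3.02 ± 0.20. Irs2 is in this list and was deleted in these mice. The difference between the diets in the meal effect was called for 2 of 14, G6pc (2.56 ± 0.50, adjusted p = 0.0465) and Tat, the tyrosine aminotransferase (1.99 ± 0.24, adjusted p = 0.00762), where 0.743% of all symbols were called. The call of G6pc was lost with any 1 library left out except obese unfed replicates 1 and 2 (adjusted p 0.0592 to 0.125). In L-GRKO 1 rose and 3 fell of 16 (6.68% of all symbols called), Tat and the clock gene Per1 among those that fell (-1.03 ± 0.22 and -0.84 ± 0.17). Both calls were lost without L-GRKO replicate 2 (adjusted p = 0.0688 and 0.0591), and that of Tat also without AAV-GFP replicate 2 (adjusted p = 0.0518). With dex 3 of 16 rose in fed mice (3.19% of all symbols called), namely Dusp1, a MAP kinase phosphatase (1.67 ± 0.24), Tat (1.29 ± 0.22) and Btg2 (1.18 ± 0.28). The call of Btg2 was lost without fed vehicle replicate 1 or 3 or fed dex replicate 1 or 2 (adjusted p 0.0587 to 0.101).

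Of 25 partners and targets of the PGC-1 coactivators, all tested in both comparisons, 9 fell and 2 rose with the meal in lean mice (median -0.20 against 0.08, with 23.4% of all symbols called), and 6 rose and 1 fell in L-IRSdKO (median 0.23 against 0.03, with 17.4% called). Lpin1, a phosphatidate phosphatase that also partners PGC-1 alpha, fell by 2.75 on the log2 scale in the former (SE 0.48) and fell by 4.50 in L-GRKO (SE 0.18, adjusted p = 6.23e-07). Pdk4, the pyruvate dehydrogenase kinase, rose by 3.56 ± 0.51 in L-IRSdKO. In L-GRKO 0 rose and 2 fell of the 24 tested (6.68% of all symbols called). A list of 13 genes held CREB-H processing and its targets. With the meal, 1 of 11 tested fell in uninjected mice (6.77% of all symbols called) and 1 of 13 rose in lean mice (23.4%). None of 12 was called by the meal in vehicle-injected mice (3.13%) and none of 13 in obese mice (7.65%). In L-IRSdKO 2 rose and 1 fell of 12 (17.4%). With S961 2 of 12 rose (1.9% of all symbols called), Fgf21, a hormone of the fasted liver (2.53 ± 0.44), and Cidec, a lipid-droplet protein (1.35 ± 0.21).

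As a description of likeness, each member was correlated with 10773 genes over the 48 poly(A) libraries, after centring log2(RPKM + 0.5) within each experiment. These libraries share treatments, depth and library series, so no test was made. Nearest to Ppargc1a were Tbc1d8 (r = 0.872), Nipal1 (r = 0.85) and Cobll1 (r = 0.847). Cobll1 was also nearest to Ppargc1b (r = 0.771), followed by Trib3 (r = 0.744) and Slc8b1 (r = 0.741). For Crtc2 the nearest genes were Atn1 (r = 0.93), Rnf44 (r = 0.897) and Col18a1 (r = 0.895). Creb1 was nearest to Swt1, Slc5a3 and Cmah (r = 0.625 to 0.734), and Creb3l3 to Fpgs, Nfe2l1 and Oplah (r = 0.732 to 0.77). For Crem these were Tmed5, Zfand6 and Rcbtb1 (r = 0.732 to 0.765), for Sik1 Fam222a, Idh2 and Frmd4b (r = 0.588 to 0.62), and for Nr4a1 Cadm3, Hspg2 and Hmox1 (r = 0.603 to 0.629). Between members, the highest r was that of Ppargc1a with Ppargc1b (0.63), then that of Ppargc1a with Sik1 (0.415). The lowest was that of Crtc2 with Crem (-0.465). In each injected group, replicate 4 had the highest Crtc2 and the lowest Crem value, and the part of this in the r was not tested.

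On chromatin, Ppargc1a and Ppargc1b had 5 GR peaks each near their starts and Sik1 had 4, and Ppargc1b and Sik1 had 4 FOXO1 peaks each. Positions are in mm9, and a peak was counted when its centre lay within 50 kb of the 5′ end of the gene in GENCODE vM1. A GR peak was near 5 of the 8 members, against 32.8% of 22238 protein-coding genes, a FOXO1 peak near 6 of 8 (34.6%) and a DHS near 8 of 8 (86.6%). The members had 16 GR peaks and 13 FOXO1 peaks, and 6 of the GR peaks shared bases with a FOXO1 peak. The peaks give positions only, with no height.

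Ppargc1a (chromosome 5, 51845488 to 51958964, minus strand) had 5 GR peaks and 1 FOXO1 peak, and only 2.79% of genes had 5 or more GR peaks. Of these GR peaks 4 were intronic and 1 lay at -24.2 kb, upstream. The nearest was 21.9 kb inside the gene from its 5′ end and shared bases with a DHS. It lay 8.08 kb from the internal start at 51945160, the most downstream of 3 annotated starts. The FOXO1 peak overlapped the GR peak that lay 39.8 kb inside the gene from its 5′ end, 26.0 kb from that internal start. Ppargc1b (chromosome 18, 61457790 to 61560085, minus strand) had 5 GR and 4 FOXO1 peaks, of which 3 pairs shared bases, at -12.3, -21.6 and -42.4 kb from the start (negative is upstream). Sik1 (chromosome 17, 31981193 to 31992737, minus strand) had 4 of each, with a GR peak 0.52 kb upstream of its start and an intronic FOXO1 peak at 3.67 kb.

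Crtc2 (chromosome 3, 90058085 to 90068047, plus strand) had no GR peak within 100 kb, and a FOXO1 peak over its first exon, 0.06 kb from the start. Creb1 (chromosome 1, 64579378 to 64651121, plus strand) had neither factor within 100 kb and a DHS at its start. Crem (chromosome 18, 3266046 to 3337746, minus strand) had no peak of either factor within 50 kb of its 5′ end. It has 21 annotated start positions of protein-coding transcripts, and an overlapping GR and FOXO1 pair lay in an intron 57.1 kb from the 5′ end, 0.41 kb downstream of the internal start at 3281076. Counted from any annotated start, 6 of the 8 members had a GR peak within 50 kb and 7 had a FOXO1 peak. The shares over all genes were counted from the 5′ end alone, and none was computed for any start. Counting from more starts can only add peaks, so these numbers cannot be set against those shares. Creb3l3 (chromosome 10, 80547069 to 80561619, minus strand) had an intronic GR peak at 4.61 kb and an intronic FOXO1 peak at 6.18 kb, which shared no bases. Another FOXO1 peak of Creb3l3 lay outside the gene at -38.6 kb and shared bases with a DHS. Nr4a1 (chromosome 15, 101097277 to 101105223, plus strand) had 1 GR peak and 1 FOXO1 peak, which overlapped at 19.8 kb upstream, and a DHS 0.12 kb upstream.

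**Figure D4:**
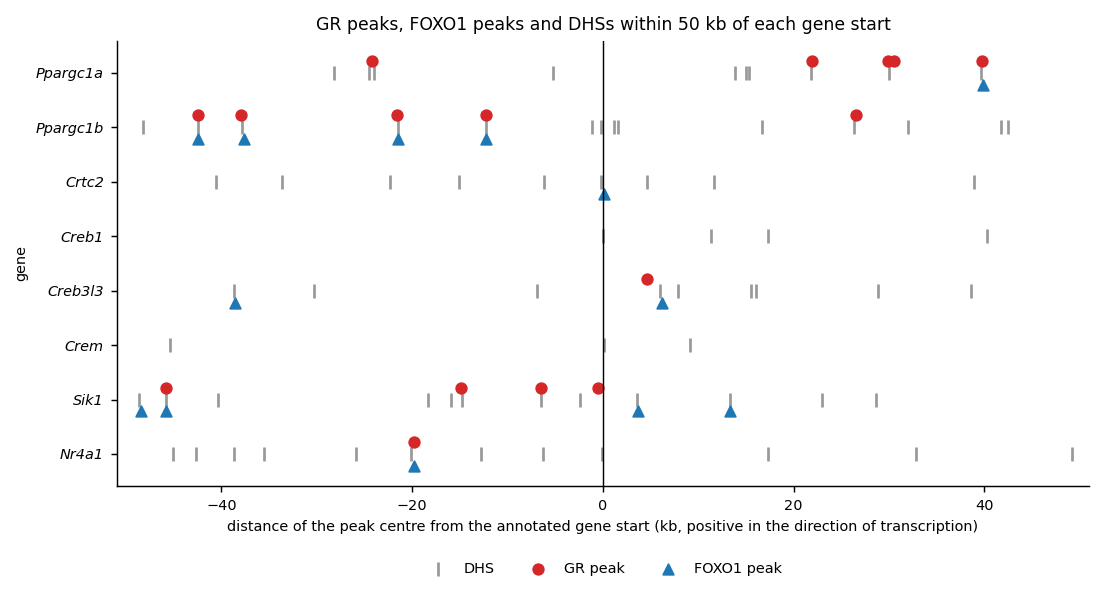
Distance in kb (horizontal axis) of GR peaks (red circles), FOXO1 peaks (blue triangles) and DHSs (grey bars) from the annotated start of each of the 8 genes (rows), positive in the direction of transcription. Ppargc1b and Sik1 have at least 4 peaks of each factor, Ppargc1a has 5 GR peaks and 1 FOXO1 peak, and Creb1 and Crem show DHSs alone in this window around the 5′ end of the gene.

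Promoters are shown because CREB binds the cAMP response element (CRE), TGACGTCA, or the shorter motif TGACG, called a half-site here. The windows run from 250 bases before to 50 after the start, from RefSeq on GRCm38.p6, and those of 4 of the 8 members were searched. No window of Crtc2, Ppargc1b, Crem or Sik1 was searched, so whether their promoters hold these motifs was not tested. Both strands were searched, and each full CRE also holds 2 overlapping half-sites. A full CRE was in 1.79% of 32851 promoters and in none of the windows of Creb1, Creb3l3, Nr4a1 and Ppargc1a. A half-site was in 20.8% of promoters. Nr4a1 had 4, and 0.231% of promoters had 4 or more. Their first bases lay at -233, -213, -69 and -40 from the start, all on the minus strand of the gene. For Ppargc1a the window is that of the most upstream start, with a half-site at -49, also on the minus strand. A window of Creb3l3 (chr10:81092542-81092841) held a half-site at -239, on the plus strand of the gene. The other window of Creb3l3 and that of Creb1 held none. Capitals mark half-sites.
Nr4a1, chr15:101266596-101266895, plus strand: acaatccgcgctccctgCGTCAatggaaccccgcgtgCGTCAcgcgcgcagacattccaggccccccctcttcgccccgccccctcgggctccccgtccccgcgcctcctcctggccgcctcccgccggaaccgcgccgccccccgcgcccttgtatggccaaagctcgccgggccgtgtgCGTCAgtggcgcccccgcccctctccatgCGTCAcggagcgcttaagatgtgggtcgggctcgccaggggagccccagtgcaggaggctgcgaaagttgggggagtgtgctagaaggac
Ppargc1a, chr5:51567676-51567975, minus strand: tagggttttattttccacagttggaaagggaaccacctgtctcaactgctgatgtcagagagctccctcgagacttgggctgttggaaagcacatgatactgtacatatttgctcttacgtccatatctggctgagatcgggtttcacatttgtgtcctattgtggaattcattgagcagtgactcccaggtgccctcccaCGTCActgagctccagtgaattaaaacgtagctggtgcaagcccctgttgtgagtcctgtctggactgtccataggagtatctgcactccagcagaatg

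Peak sequences are shown for the GR peak of Ppargc1a with a match to the GR core, for the GR peak next to the start of Sik1, and for the FOXO1 peak of Sik1 with a forkhead match. The letters searched on both strands of mm9 were GNACA, 3 free bases and TGTNC for GR (N is any base) and GTAAACA for forkhead factors. The GR letters were in 7.8% of the 10446 GR peaks and the forkhead letters in 18.8% of the 8546 FOXO1 peaks. Of the 16 GR and 13 FOXO1 peaks of the members, all were searched except the 5 GR and 4 FOXO1 peaks of Ppargc1b. Among the peaks searched, those of 5 members, 1 of the GR peaks held the GR letters. The forkhead letters were in 2 of the FOXO1 peaks searched, the second being that at the start of Crtc2. Whether these counts differ from the shares over all peaks was not tested. Sequences run on the plus strand, and capitals mark the match.
Ppargc1a intronic GR peak, chr5:51928346-51928525: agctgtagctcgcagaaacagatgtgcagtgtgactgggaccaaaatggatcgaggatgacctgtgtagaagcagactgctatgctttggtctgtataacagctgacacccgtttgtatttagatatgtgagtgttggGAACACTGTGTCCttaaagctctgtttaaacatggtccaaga
Sik1 GR peak 0.52 kb upstream, chr17:31993163-31993342: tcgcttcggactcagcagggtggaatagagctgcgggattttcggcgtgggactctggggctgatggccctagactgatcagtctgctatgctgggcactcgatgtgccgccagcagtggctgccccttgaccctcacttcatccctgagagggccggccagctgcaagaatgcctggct
Sik1 FOXO1 peak 13.3 kb from the start, beyond the 3′ end of the gene, chr17:31979378-31979557: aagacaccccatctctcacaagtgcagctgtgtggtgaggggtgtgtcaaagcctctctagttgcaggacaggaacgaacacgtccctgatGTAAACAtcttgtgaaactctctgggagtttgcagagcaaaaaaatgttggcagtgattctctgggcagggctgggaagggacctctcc
The GR peak next to the start of Sik1 held neither set of letters.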

How the data were processed

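Liver RNA was measured in 54 libraries of 16 groups. The deposited RNA table holds RPKM per RefSeq ID, which the authors computed after aligning reads to mm9, per the labels with STAR and HOMER. The authors tested counts with DESeq2, but RPKM are not counts, so limma was used here. Of 35707 IDs, 35407 matched a symbol. The deposited GR (10446), FOXO1 (8546) and DHS (83592) lists hold positions that the authors called with HOMER. Values were fitted as log2(RPKM + 0.5) with a variance trend (limma 3.58.1), each experiment apart, with symbols at a mean of at least 0.5 RPKM and Benjamini-Hochberg adjustment over all of them. The RPKM give no depth in reads. The smallest steps between low values showed a relative depth that differed within an experiment by 1.23 to 2.11 times, so low genes are the least precise. Since a pseudocount is added, fold changes of low genes are understated.

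The members, lists and tests were chosen with earlier results of these data known. Named were the 8 members in all comparisons, up to 3 rises and 3 falls per comparison from the 4 pathway lists, and the 3 genes most alike to each member. The replicate numbers are not stated to pair animals. In the injected mice, replicate 4 libraries deviated together (r of 0.441 to 0.605 between groups), while other same-numbered libraries had r from -0.12 to 0.316, so the numbers were not taken as pairs. Samples are single mice. Alternatives were a pseudocount of 0.1 or 1, a filter at 2 RPKM or none, median-ratio scaling, the second-highest RefSeq ID, the compared groups alone, a threshold of 0.01, the replicate block, a library-series term, peak windows of 20 and 100 kb, centres within 100 bp and each library left out. Peaks counted from any annotated start and replicates 1 to 3 alone were added after seeing the data. The fits were tried on simulated data in which libraries deviated independently. That simulation held no library series, so it cannot show how the fits behave with one.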

Additional observations from a re-analysis of the deposited data

Results flagged for a closer look

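In groups of 4, a library was marked when its gap to the nearest other, as a share of the range of the group, passed Dixon's 95% critical value. Of 72 gene and group pairs 5 were marked, where chance marks about 1 in 20. Ppargc1a in unfed vehicle replicate 4 was at 3.35 RPKM, with the others at 2.79 to 2.86 RPKM. Crtc2 in L-IRSdKO replicate 2 was at 22.3 RPKM, with the others at 20.9 to 21.2 RPKM. Sik1 in fed vehicle replicate 4 was at 8.19 RPKM, with the others at 3.03 to 3.21 RPKM. Nr4a1 was at 2.05 RPKM in fed vehicle replicate 2, with the others at 0.485 to 0.66 RPKM, and at 4.20 RPKM in L-IRSdKO replicate 1, with the others at 1.95 to 2.25 RPKM. The part of the library series in the 2 replicate 4 values was not tested. No member differed between groups by a called interaction.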

How the results depend on the processing

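The number of members called depended on several choices. Without a filter on low values it was 1 at ZT10 to ZT14-unfed, 1 for the uninjected meal, 0 for dex + S961 against unfed vehicle, 2 in L-IRSdKO, 0 for obese against lean unfed and 3 for the lean meal. At a threshold of 0.01 it was 1, 1, 0, 2, 0 and 1 in the same comparisons. With the replicate block, where the numbers are not known to pair animals, it was 3 for S961, 3 for dex + S961, 2 for dex + S961 against unfed vehicle, 2 in L-IRSdKO and 1 for the obese meal, and it was the same in the other comparisons. With the library-series term it was 3, 2 and 2 in the first 3 of these, and with replicates 1 to 3 alone, tried after seeing the data, it was 2 for dex, 2 for S961 and 2 for dex + S961 against unfed vehicle. In fits of the compared groups alone it was 0 for S961, 0 for obese against lean unfed and 1 (Creb3l3) for obese against lean fed. For dex + S961 against unfed vehicle it stayed 1 there, but the gene was Sik1 (adjusted p = 0.0364) in place of Ppargc1a (adjusted p = 0.063). A filter at 2 RPKM gave 2 for the uninjected meal (5 members tested), 3 for the lean meal (6 tested) and 1 for the obese meal. Median-ratio scaling also gave 1 for the obese meal. The cause of these changes was not tested.

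With 1 library left out, the number ranged from 1 to 3 at ZT10 to ZT14-unfed and for the uninjected meal, from 1 to 2 for S961, for dex + S961 and for obese against lean unfed, from 0 to 1 for dex + S961 against unfed vehicle and for the obese meal, and from 2 to 5 in L-IRSdKO and for the lean meal. Over all alternatives, 653 of 734 values of single members kept their direction and side of the threshold, 55 lost the call, 26 gained one and 0 reversed. Of 965 values of the named list genes, 750 stayed the same and 215 lost the call. The number called over all symbols moved too with 1 library left out, from 976 to between 208 and 775 at ZT10 to ZT14-unfed, from 738 to between 39 and 748 for the uninjected meal and from 57 to between 0 and 8 for obese against lean fed. Nr4a1 fell below the 0.5 RPKM filter in 3 experiments. It was tested there only without the filter or, in injected mice, in fits of the compared groups alone that held fed vehicle. Groups held 2 to 4 mice.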
